A study of Mus musculus with 6 samples.

Results

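The analysis concerned 10 genes that encode proteins of the junctions between intestinal epithelial cells: the claudins Cldn2, Cldn3, Cldn4, Cldn7, Cldn15 and Cldn23, and Ocln, Tjp1, Cdh1 and Epcam. They were chosen as named junction genes, with no threshold on their values but with earlier results of these data known, out of 38561 genes counted, and all 10 were among the 16425 genes abundant enough to be tested. The RNA came from small intestinal mucosa of C57BL/6J mice aged 8 to 12 weeks, and each of the 6 libraries was a pool from 3 mice of both sexes according to the labels, whereas the study's methods give a wider range of ages and of mice per pool. The paper gives the sequenced mucosa as jejunal. There were 3 pools labelled Rbm47_IKO, in which Rbm47, an RNA-binding protein gene, was to be deleted in the intestinal epithelium by Cre recombinase under the Vil1 (villin) promoter. There were 3 pools labelled wt, which the labels call wild type and the study's methods describe as floxed (Rbm47 fl/fl) mice. Mucosa holds epithelium together with connective tissue, vessels, immune cells and some muscle, and fewer cells of a type cannot be told apart from less RNA per cell in such samples.

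Epithelial cells of the gut are joined at their apical border by tight junctions, below which lie the adherens junctions and the desmosomes. Claudins are small proteins with 4 membrane-spanning segments whose outer loops meet those of the neighbouring cell, and the mixture of claudins in a cell layer sets which ions pass between cells: some, such as claudin-2 and claudin-15, form pores for cations and water, while others, such as claudin-3 and claudin-4, are regarded as sealing. Occludin shares the strands with the claudins, ZO-1 (the product of Tjp1) ties them to the actin cytoskeleton, E-cadherin (Cdh1) is the adhesive protein of the adherens junction, and Epcam is an adhesion protein of the lateral membrane that binds and stabilizes claudin-7.

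Library totals ran from 31560320 to 38951830 counts. Rbm47 itself was not lower in the libraries labelled Rbm47_IKO. Its level, in CPM after TMM scaling between libraries (hereafter normalized CPM), was 603, 625 and 620 in those libraries and 460, 450 and 472 in the wt libraries, a log2 fold change of 0.42 (SE 0.10, edgeR adjusted p = 0.0751). It was called higher in the libraries labelled Rbm47_IKO by DESeq2 (adjusted p = 0.00954) and by edgeR with library size as the only scaling (0.0473). Which exons were deleted is not given in the sources used here, and a count over the whole gene includes any exon outside the deleted part. The deletion itself could thus not be checked from these counts, and their direction does not follow the label. The Rbm47 level was higher in every library labelled Rbm47_IKO than in every wt library. Whether retained exons bear on this higher level was not tested. The paper reports negligible Rbm47 mRNA after constitutive intestinal deletion. No such loss was seen in the libraries labelled Rbm47_IKO. Every direction given here is by label, and would turn if the labels were exchanged. Of the goblet-related genes that the paper reports as higher by qPCR in Rbm47-IKO intestine, Cdx2, Muc2 and Tff3 were in the lists used here. Their log2 fold changes by label were 0.56, 0.25 and 0.06 (edgeR adjusted p = 0.0835, 0.504 and 0.944). The paper also reports more BrdU-positive crypt cells in Rbm47-IKO mice, a count of cells and not of RNA. Of the 5 crypt markers in the lists used here, 1 was higher and 4 were lower by label, and edgeR called none. Whether labels were exchanged was not tested. These pools are referred to by their label only, as libraries labelled Rbm47_IKO. The epithelial markers, 7 genes with none at 0 in any pool, summed to 13230 to 16330 normalized CPM in these libraries and 14220 to 15190 in the wt libraries. The 6 smooth muscle markers varied far more within both genotypes, from 361 to 3302 and from 90.7 to 2803, and were highest in pool 3 labelled Rbm47_IKO and in wt pool 2.

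None of the 10 junction genes passed the genotype test, for which edgeR's quasi-likelihood p was adjusted by the Benjamini-Hochberg method and compared with a threshold of 0.05. Over all genes tested, 2.70% passed. Of the 10, 1 had an unadjusted p under 0.05, beside 16.8% of all genes tested. This gene was Cldn7, which DESeq2 called (1 of 10 genes) and limma-voom did not (0 of 10). The median log2 fold change of the 10 genes was 0.05, beside -0.0059 over all genes tested, with 6 genes above 0 and 4 below. Cldn7 was also the 1 gene of the 10 whose pools did not overlap between genotypes, a pattern seen in 23.3% of all genes tested.

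**Figure D1:**
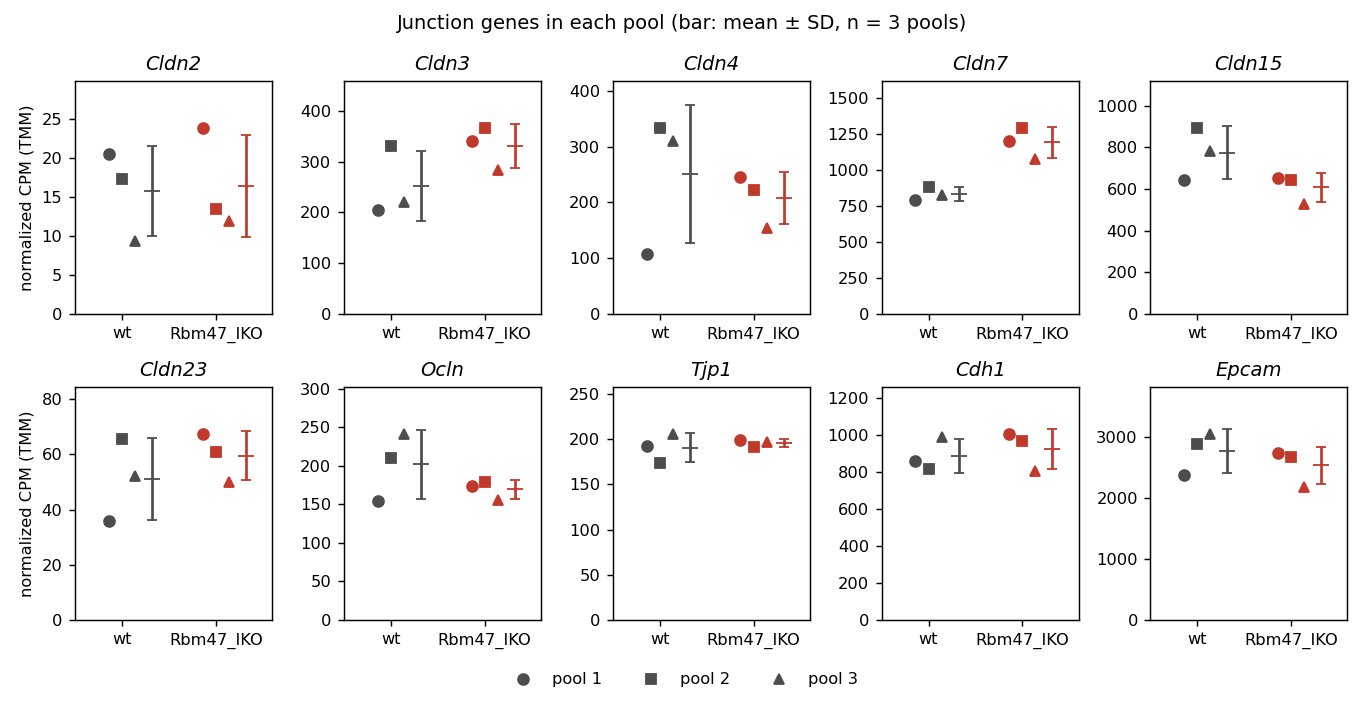
Normalized CPM of each junction gene (vertical axes, linear and starting at 0) in the 3 wt pools (grey) and the 3 pools labelled Rbm47_IKO (red), with the pool number as the symbol and the mean ± SD beside them. The Cldn7 pools labelled Rbm47_IKO, at 1077 to 1296, all lie above the wt pools, at 793 to 883, and the pools of every other gene overlap.

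The 10 genes spanned a wide range of abundance. Levels of different genes were compared as normalized CPM per kilobase of the deposited gene length, averaged over the 6 pools. Epcam was highest at 1299, followed by Cldn7 at 519.8, Cldn15 at 325, Cldn3 at 231, Cdh1 at 199, Cldn4 at 127, Ocln at 44.0, Cldn23 at 29.9, Tjp1 at 26.3 and Cldn2 at 4.83. The level of Epcam per kilobase was thus 268.8 times that of Cldn2. The 6-pool ranges of Epcam and Cldn7, of Cldn4 and Ocln, and of Tjp1 and Cldn2 did not overlap, and each other pair of neighbours in this order had overlapping ranges. Within a pool, the order was steadier than the ranges show. Cldn7 exceeded Cldn15, Cldn15 exceeded Cldn3 and Ocln exceeded Cldn23 in 6 of 6 pools, whereas Cldn3 exceeded Cdh1 in 4, Cdh1 exceeded Cldn4 in 5 and Cldn23 exceeded Tjp1 in 5.

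The pools of a genotype differed together in these genes. Among the libraries labelled Rbm47_IKO, pool 3 was the lowest in 9 of the 10 genes, Tjp1 being the exception. Among the wt libraries, pool 1 was the lowest in 7. The summed normalized CPM of the 10 genes was 5447 and 5377 in these pools and 6608 to 6693 in the other 4. These pools also had the lowest sums of the epithelial markers in their genotypes, 13230 and 14220, and the part of this difference in the junction genes was not tested.

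Cldn15, on chr5:136966616-136975858, encodes the claudin that forms the sodium pore of the small intestine. Normalized CPM stood at 654, 644 and 526 in the libraries labelled Rbm47_IKO and 641, 895 and 784 in the wt libraries. A single pool, number 3 labelled Rbm47_IKO, lay below every wt pool, and wt pool 1 lay among the libraries labelled Rbm47_IKO. This gave a log2 fold change of -0.35 (95% interval -0.72 to 0.02, edgeR adjusted p = 0.330). Leaving out 1 pool at a time kept it between -0.47 and -0.23, and without the 2 pools highest in smooth muscle markers it was -0.14.

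Cldn2, on chrX:139800828-139811386, encodes the pore-forming claudin typical of crypts. It was the scarcest of the 10 genes, with 339 to 828 counts per pool. Its normalized CPM was 23.9, 13.5 and 11.9 in the libraries labelled Rbm47_IKO and 20.6, 17.3 and 9.30 in the wt libraries. The highest pool exceeded the lowest 2.01 times within the first group and 2.21 times within the second, so that the log2 fold change of 0.06 had an interval of -0.75 to 0.88 (edgeR adjusted p = 0.960). Its direction depended on single pools, being -0.31 without pool 1 labelled Rbm47_IKO and 0.30 without wt pool 1. The 5 crypt markers, none at 0 in any pool, summed to 215, 161 and 128 normalized CPM in the libraries labelled Rbm47_IKO and 269, 230 and 154 in the wt libraries. Within each genotype the order of the pools by Cldn2 was the order by this sum. Singly, Lgr5, Olfm4 and Mki67 had another order in the wt libraries, and Lgr5 also in the libraries labelled Rbm47_IKO. The part of crypt content in the Cldn2 level was not tested.

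Cldn7, on chr11:69964779-69967885, encodes the claudin that is found along the lateral membrane as well as in the tight junction and that binds Epcam. Its normalized CPM was 1204, 1296 and 1077 in the libraries labelled Rbm47_IKO and 793, 883 and 824 in the wt libraries. All 3 pools labelled Rbm47_IKO were above all 3 wt pools, with means of 1192 ± 110 and 833 ± 45.8 (SD, n = 3 pools each). Higher in the libraries labelled Rbm47_IKO without overlap were 11.7% of all genes tested. edgeR put the log2 fold change at 0.52 (SE 0.12, 95% interval 0.23 to 0.80), with an unadjusted p of 0.00326 and an adjusted p of 0.0740.

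The call of Cldn7 depended on the method more than its size did. DESeq2 called it (adjusted p = 0.00572), where it called 7.83% of all genes with an adjusted p. edgeR called it with library size as the only scaling (adjusted p = 0.0432), which called 3.74% of genes, and among genes with at least 50 counts in 3 pools (adjusted p = 0.0448), of which 4.61% were called. Across all alternatives with 6 pools or without the 2 pools highest in smooth muscle markers, the log2 fold change was 0.41 to 0.62 and the adjusted p 0.00572 to 0.354. With 1 pool left out, it was 0.45 to 0.59, with an edgeR adjusted p of 0.0867 to 0.364. The lowest fold change came with an offset for GC content, chosen after the data were seen. The transcript of Cldn7 has 57.0% GC, above 86.9% of the genes tested, beside a median of 49.8%.

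Of the marker sums, those of the goblet and proximal intestine lists were higher in every library labelled Rbm47_IKO than in every wt library. The 5 goblet markers, none at 0, summed to 5697 to 7557 normalized CPM in the libraries labelled Rbm47_IKO and 4655 to 5394 in the wt libraries, which rested on Clca1: without it the sums were 2558 to 3050 and 2072 to 2842 and overlapped. The 3 proximal intestine markers, none at 0, summed to 166 to 191 and 117 to 155, most of it from Gata4, and to 10.1 to 11.7 and 7.79 to 8.82 without it. No gene of these 2 lists passed the edgeR test with all 6 pools, while DESeq2 called Clca1 (adjusted p = 0.0148). The immune cell sums overlapped, at 121 to 173 and 171.6 to 237.5. Of these 5 markers, 3 were lower in every library labelled Rbm47_IKO than in every wt library. The ileum sums overlapped too, although Fabp6 was at 18.6 to 39.8 against 2.55 to 17.2. Among all genes tested, 23.3% had pools that did not overlap. The part of any of these markers in the Cldn7 level or in the claudin mixture was not tested.

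Cldn3, a sealing claudin on chr5:134986214-134987476, had a normalized CPM of 341, 368 and 283 in the libraries labelled Rbm47_IKO and 205, 332 and 220 in the wt libraries. Of the 3 pools labelled Rbm47_IKO, 2 were above every wt pool, and pool 3 was below wt pool 2. Its log2 fold change was 0.39 (95% interval -0.08 to 0.86, edgeR adjusted p = 0.395) and ranged from 0.26 without wt pool 1 to 0.64 without wt pool 2. It was 0.24 with the GC offset and 0.73 without the 2 pools highest in smooth muscle markers (edgeR adjusted p = 0.704 and 0.0570). The single exon of Cldn3 shares 44 bases with Wbscr25 on the opposite strand, and whether the counting used strand is not given in the sources used here. Its GC content of 62.8% is above that of 98.8% of the genes tested.

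Cldn4, a sealing claudin encoded by a single exon on chr5:134945126-134946934, was the gene of the 10 whose pools varied most. Its normalized CPM was 246, 222 and 155 in the libraries labelled Rbm47_IKO and 108, 335 and 311 in the wt libraries. The libraries labelled Rbm47_IKO lay between wt pool 1 and the other 2 wt pools, which exceeded it up to 3.10 times. With this spread, the log2 fold change of -0.27 had an interval of -1.19 to 0.64 (edgeR adjusted p = 0.820). It was -0.64 without wt pool 1 and -0.01 without wt pool 2, and 0.15 without the 2 pools highest in smooth muscle markers. The 3 ileum markers, none at 0, summed to 104 normalized CPM in wt pool 1, 33.1 and 27.7 in wt pools 2 and 3, and 94.0, 93.4 and 70.8 in the libraries labelled Rbm47_IKO. The wt pool lowest in Cldn4 was the pool with the highest ileum sum, owing to Slc10a2 (44.4 there, 3.40 to 17.2 elsewhere), whereas Fabp6 was lower in it than in the libraries labelled Rbm47_IKO. The part of the sampled region in the Cldn4 level was not tested.

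Cldn23, a single-exon claudin gene on chr8:35824709-35826559, had a normalized CPM of 67.5, 61.0 and 50.1 in the libraries labelled Rbm47_IKO and 35.9, 65.7 and 52.1 in the wt libraries. The genotypes overlapped, with wt pool 1 apart from the other pools at the low end. Its log2 fold change was 0.22 (95% interval -0.29 to 0.73, edgeR adjusted p = 0.720) and ran from 0.02 without wt pool 1 to 0.44 without wt pool 2, and to 0.54 without the 2 pools highest in smooth muscle markers.

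**Figure D2:**
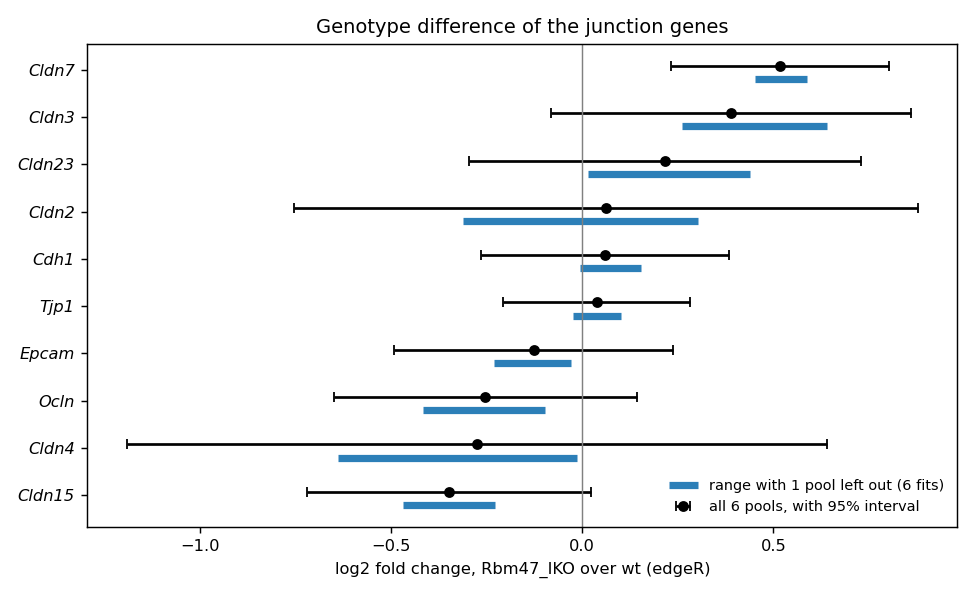
Log2 fold change of each junction gene, libraries labelled Rbm47_IKO over wt (horizontal axis), from edgeR with all 6 pools (black points with 95% intervals) and its range when each pool was left out in turn (blue bars, 6 fits). The interval of Cldn7, 0.23 to 0.80, is the only one of the 10 that leaves out 0, before adjustment for the number of genes tested.

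Since the mixture of claudins matters to a cell layer, each claudin was expressed as a share of the summed level per kilobase of the 6 claudins, which was 1312 ± 150 normalized CPM per kilobase in the libraries labelled Rbm47_IKO and 1163 ± 204 in the wt libraries (SD, n = 3 pools each). Cldn15 made up 22.4%, 21.4% and 21.7% of this sum in the libraries labelled Rbm47_IKO and 31.6%, 30.9% and 31.6% in the wt libraries. The pools of each genotype lay close together, and the genotypes did not overlap. The means were 21.8% ± 0.525 and 31.4% ± 0.377 (SD, n = 3 pools each), a difference of -9.54 percentage points.

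The share of Cldn7 was 44.9%, 46.9% and 48.5% in the libraries labelled Rbm47_IKO and 42.6%, 33.2% and 36.2% in the wt libraries, with no overlap and a difference of 9.42 percentage points. The share of Cldn3 was 19.6%, 20.5% and 19.7% against 16.9%, 19.3% and 14.9%, also without overlap, with a difference of 2.88 percentage points. The shares of Cldn4, 8.68% ± 1.19 against 11.5% ± 4.59, of Cldn23, 2.45% ± 0.178 against 2.35% ± 0.293, and of Cldn2, 0.374% ± 0.130 against 0.423% ± 0.207 (SD, n = 3 pools each), overlapped between genotypes. Exact two-sided permutation tests gave p = 0.1 for Cldn15, Cldn7 and Cldn3, which is the smallest p that 3 pools against 3 allow, p = 0.4 for Cldn4 and p = 0.7 for Cldn2 and Cldn23. Adjusted over these 6 tests, the smallest exact p was 0.2, so that no share passed a threshold of 0.05 and none could have. Shares of 1 sum are not independent of each other.

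**Figure D3:**
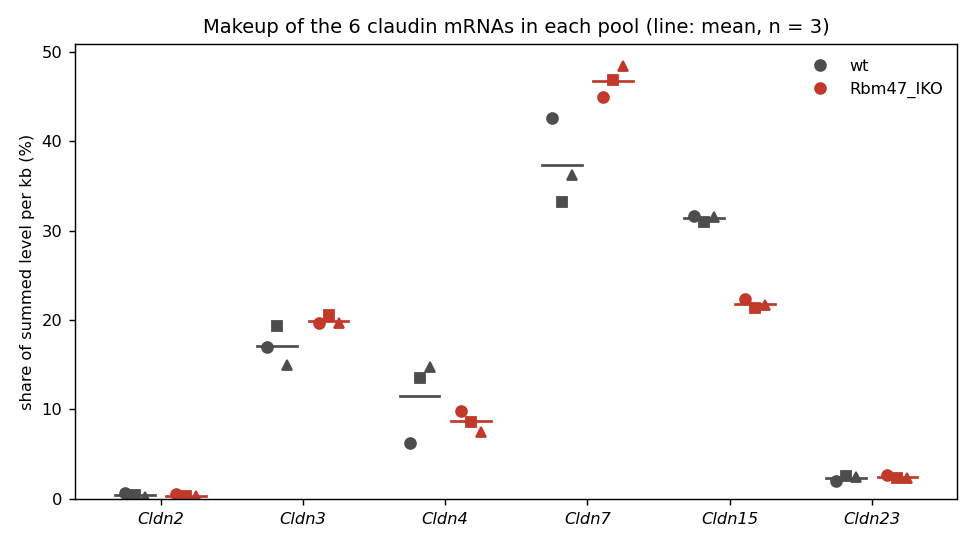
Share of each claudin in the summed level per kilobase of the 6 claudins (vertical axis, percent), in wt pools (grey) and pools labelled Rbm47_IKO (red), with circles, squares and triangles for pools 1, 2 and 3 and a line at the mean of 3 pools. Cldn15 lies at 21.4% to 22.4% in the pools labelled Rbm47_IKO and at 30.9% to 31.6% in the wt pools.

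Cldn7 and Cldn15, the most abundant of the claudins, are shown with their promoter windows, because they are the largest parts of the claudin sum. The windows, 250 bases before to 50 bases after the start, come from RefSeq (GRCm38.p6), where 8 of the 10 genes were matched and Cldn23 and Cdh1 were not. The motifs searched on both strands were CAGGTG, an E-box bound by Snai and Zeb factors, found in 20.2% of all 32851 windows, TGANTCA, the AP-1 motif, found in 7.81%, and TTTATG, bound by Cdx factors, found in 11.9%. Capitals mark the first 2. Cldn7 has 2 starts in RefSeq, which a count per gene does not separate, at chr11:69964529-69964828 and chr11:69965171-69965470 (+ strand). The Cldn15 window is chr5:136967619-136967918 (+ strand).
Cldn7, upstream start: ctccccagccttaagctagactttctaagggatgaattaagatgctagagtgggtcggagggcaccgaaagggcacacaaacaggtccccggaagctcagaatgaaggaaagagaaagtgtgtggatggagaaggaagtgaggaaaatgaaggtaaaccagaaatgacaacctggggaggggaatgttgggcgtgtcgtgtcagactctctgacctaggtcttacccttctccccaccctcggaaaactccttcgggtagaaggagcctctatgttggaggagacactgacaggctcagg
Cldn7, downstream start: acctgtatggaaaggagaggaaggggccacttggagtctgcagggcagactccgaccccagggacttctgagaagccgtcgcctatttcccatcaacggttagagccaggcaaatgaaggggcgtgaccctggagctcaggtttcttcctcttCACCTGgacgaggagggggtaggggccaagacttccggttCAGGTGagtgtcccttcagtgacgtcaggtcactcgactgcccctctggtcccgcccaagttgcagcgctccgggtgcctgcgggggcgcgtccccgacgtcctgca
Cldn15: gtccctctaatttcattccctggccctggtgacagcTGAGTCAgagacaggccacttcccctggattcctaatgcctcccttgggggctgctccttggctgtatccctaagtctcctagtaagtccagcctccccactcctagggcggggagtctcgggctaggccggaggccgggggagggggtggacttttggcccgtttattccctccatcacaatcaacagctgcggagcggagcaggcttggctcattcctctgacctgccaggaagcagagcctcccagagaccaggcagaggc

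The downstream Cldn7 window held 2 E-boxes and the upstream one none of the 3 motifs, whereas the Cldn15 window held 1 AP-1 motif. Of the 10 windows of the 8 matched genes, 6 held an E-box (in Cldn3, Cldn4, Cldn7, both windows of Ocln, which overlap and share 1 E-box, and Epcam), 2 an AP-1 motif (Cldn4 and Cldn15) and 2 the Cdx motif (Cldn2 and Epcam). These matches describe the letters in the windows only.

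Ocln, on chr13:100496507-100552718, encodes occludin. Normalized CPM stood at 174, 179 and 156 in the libraries labelled Rbm47_IKO and 154, 210 and 242 in the wt libraries. All 3 pools labelled Rbm47_IKO fell between wt pool 1 and the other 2 wt pools, the same arrangement as for Cldn4. The log2 fold change was -0.25 (95% interval -0.65 to 0.14, edgeR adjusted p = 0.534), and it was -0.42 without wt pool 1, -0.10 without wt pool 3 and -0.12 with the GC offset.

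Tjp1, on chr7:65296165-65371239 (- strand), encodes the scaffold ZO-1, which binds claudins and occludin inside the cell. It was the steadiest of the 10 genes, at 199.5, 191 and 197 normalized CPM in the libraries labelled Rbm47_IKO and 193, 174 and 206 in the wt libraries. The means were 196 ± 4.37 and 191 ± 16.4 (SD, n = 3 pools each), and the log2 fold change was 0.04 (95% interval -0.21 to 0.28, edgeR adjusted p = 0.920). On the linear scale this interval runs from 0.867 to 1.22 times the wt level.

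The Tjp1 count sums 2 forms of the mRNA that the study separated by PCR. They differ by exon 20, of 240 bases and 80 codons, at chr7:65314093-65314332 (GRCm38, - strand), which 1 of the 7 annotated transcripts (Tjp1-202 in GENCODE M21) holds and which 2 transcripts skip while joining its neighbours. The exon is 1 of the exon blocks summed in the deposited table and makes up 3.26% of the gene length of 7360 bases. The level above therefore says nothing about the share of mRNA with the exon. Its sequence is shown with the sites of the qPCR primers named AE in capitals, followed by those primers.
Tjp1 exon 20: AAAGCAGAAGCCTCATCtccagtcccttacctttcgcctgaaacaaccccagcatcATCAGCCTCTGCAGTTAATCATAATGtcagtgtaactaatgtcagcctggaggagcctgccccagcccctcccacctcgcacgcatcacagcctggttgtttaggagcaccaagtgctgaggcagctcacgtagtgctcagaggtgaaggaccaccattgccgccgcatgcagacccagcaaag
AE forward primer: caacagaaagcagaagcctcatc
AE reverse primer: cattatgattaactgcagaggctgat

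The forward primer has 17 of its 23 bases in exon 20 and the others at the end of exon 19, and the reverse primer lies wholly in exon 20. Both matched 1 of the 7 transcripts, whereas the pair named CE, in exon 19, matched 3.

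Cdh1, on chr8:106603351-106670246, encodes E-cadherin. Across pools, its normalized CPM was 1009, 968 and 806 in the libraries labelled Rbm47_IKO and 860.5, 815 and 992 in the wt libraries. The ranges nearly coincided, giving 0.06 on the log2 scale (95% interval -0.26 to 0.39, edgeR adjusted p = 0.899).

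Epcam, on chr17:87635979-87651106, was the most abundant of the 10 genes, with 71364 to 111234 counts per pool. Its normalized CPM was 2743, 2673 and 2186 in the libraries labelled Rbm47_IKO and 2368, 2881 and 3052 in the wt libraries. Pool 3 labelled Rbm47_IKO was the lowest of all, and the other pools labelled Rbm47_IKO lay between wt pool 1 and wt pools 2 and 3. The log2 fold change was -0.13 (95% interval -0.49 to 0.24, edgeR adjusted p = 0.785), with -0.01 when the 2 pools highest in smooth muscle markers were left out.

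The members' partners and relatives were examined in 8 lists of 86 genes, of which 84 were in the tables and 62 passed the expression filter. Of these 62, 2 were called in either direction, or 3.23%, which is near the 2.70% of all genes tested. Both were higher in the libraries labelled Rbm47_IKO, as were 1.45% of all genes tested. An unadjusted p under 0.05 was found for 17 of the 62, which is a larger share than the 16.8% of all genes tested. The difference between these shares was not tested. The 2 genes called by edgeR with TMM scaling were both in the list of adherens junction partners. Jup, which encodes plakoglobin, a catenin of adherens junctions and desmosomes, had a normalized CPM of 474, 527 and 455 in the libraries labelled Rbm47_IKO and 297, 312 and 325 in the wt libraries (log2 fold change 0.64, SE 0.11, edgeR adjusted p = 0.0311). Nectin2, an adhesion protein of the same junction, had 228, 257 and 213 against 125, 151 and 149 (log2 fold change 0.71, SE 0.12, edgeR adjusted p = 0.0327). The pools did not overlap for either gene.

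Neither call withstood every alternative. Without any 1 of the 6 pools Jup was not called (edgeR adjusted p 0.0542 to 0.202), and Nectin2 was called only without wt pool 2 (0.0451 to 0.196 over the 6 fits). With the GC offset, the adjusted p was 0.227 and 0.159, and with the pool number as a replicate block 0.102 and 0.0808. These fits also called fewer of all genes: 167 with the GC offset, 100 with the replicate block and 0 to 431 with 1 pool left out, beside 443 in edgeR as reported. The loss of a call in them was thus not particular to Jup and Nectin2. DESeq2 called 7 of the 60 genes of the 8 lists that had an adjusted p, or 11.7%, beside 7.83% of all such genes. The log2 fold change stayed between 0.50 and 0.69 for Jup and between 0.59 and 0.81 for Nectin2 in all of these fits.

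The median log2 fold change of all 9 adherens junction partners was 0.18, with 5 higher and 4 lower. Cdh17, the intestinal LI-cadherin, had 0.18 (edgeR adjusted p = 0.686), Ctnnb1, encoding β-catenin, had -0.26 (0.433) and Ctnna1, encoding α-catenin, had -0.45 (0.109), these being the 3 most abundant of the list per kilobase. In Ctnna1, the 3 pools labelled Rbm47_IKO were all below the wt pools. DESeq2 and edgeR with library size only called Ctnna1 lower. They called 7.83% of all genes with an adjusted p and 3.74% of all genes tested.

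Among the other claudins, 3 of 24 listed genes passed the filter. Cldn12 was the most abundant at 27.3 to 44.4 normalized CPM over the 6 pools (log2 fold change -0.28, edgeR adjusted p = 0.410), and Cldn20 (-0.79, 0.434) and Cldn5 (-0.28, 0.934) were near the filter. The other 19 found in the tables had at most 22 counts in any pool. The list summed to 29.6 to 45.3 normalized CPM per pool.

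The 10 other tight junction membrane proteins had a median log2 fold change of 0.17, with 7 higher and 3 lower. edgeR with TMM scaling called none and DESeq2 called 1, Lsr (adjusted p = 0.0495), which falls outside the naming rule. The 3 most abundant were F11r, encoding the adhesion molecule JAM-A, at 0.22 (edgeR adjusted p = 0.514), Crb3, a polarity protein, at 0.43 (0.252), and Cxadr, the coxsackie and adenovirus receptor, at 0.26 (0.363). The 15 genes of the scaffold and polarity list had a median of -0.05, with 7 higher and 8 lower. Tjp3 was at 0.05 (edgeR adjusted p = 0.908) and Mpp5 at -0.34 (0.386). Ybx3, outside the naming rule and picked after its values were seen, had the largest difference of this list at 0.74 (0.234), with pools that overlapped.

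The 5 desmosome proteins had a median log2 fold change of 0.16, led in abundance by Dsp at -0.26 (edgeR adjusted p = 0.366), Dsc2 at -0.04 (0.929) and Dsg2 at 0.34 (0.159). Of the 5 genes of the Epcam partners and the matriptase system, in which the membrane protease matriptase (St14) is held in check by Spint1 and Spint2, 4 passed the filter. All 4 were above 0, with a median of 0.31 and with Spint2 at 0.33 (0.247), Spint1 at 0.08 (0.869) and St14 at 0.29 (0.271). Their list summed to 1628 to 1907 normalized CPM in the libraries labelled Rbm47_IKO and 1396 to 1613 in the wt libraries, without overlap, and 3 of the 4 had an unadjusted p under 0.05, as did 16.8% of all genes tested. Outside the naming rule and picked after its values were seen, Prss8, a membrane-anchored protease, had the largest difference of the list at 0.61 (0.0909). edgeR with TMM scaling called none of these genes, and DESeq2 called 1 of the last list (and 7.83% of all genes with an adjusted p).

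All 10 junction regulators, transcription and splicing factors of the gut epithelium, had log2 fold changes above 0, from 0.11 to 0.56 with a median of 0.30, and none was called by edgeR with TMM scaling (1 with library size only, 1 with epithelial marker scaling and 2 with DESeq2, which called 3.74%, 1.97% and 7.83% of all genes), 4 having an unadjusted p under 0.05 (16.8% of all genes tested had one). Hnf4a was at 0.43 (edgeR adjusted p = 0.276), Klf4 at 0.27 (0.416) and Cdx2 at 0.56 (0.0835). Their summed normalized CPM was 2929, 2833 and 2329 in the libraries labelled Rbm47_IKO and 1830, 2026 and 2292 in the wt libraries, which did not overlap. Of the mesenchymal transition genes, 6 of 8 passed the filter and none was called. Vim was at 47.4 and 53.5 normalized CPM in the 2 pools highest in smooth muscle markers and at 12.9 to 26.8 in the others (log2 fold change 0.02, edgeR adjusted p = 0.992). Fn1 was likewise highest in those pools, at 115 and 105 beside 17.9 to 54.2 (0.37, 0.860), and Zeb1 had a log2 fold change of 0.04 (0.987).

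**Figure D4:**
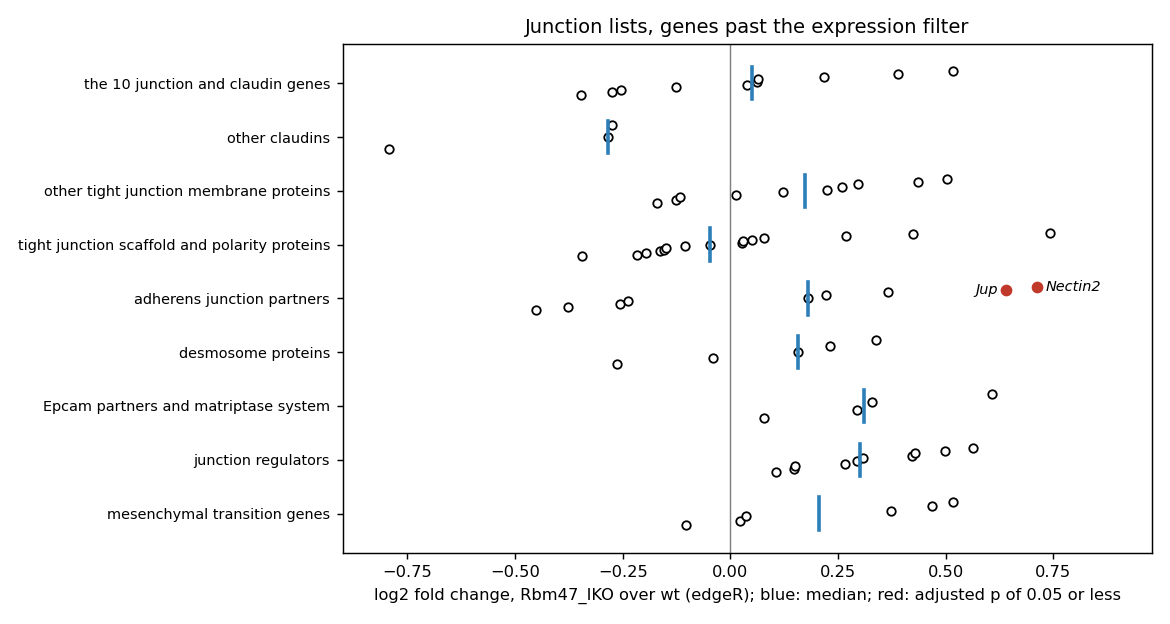
Log2 fold change, libraries labelled Rbm47_IKO over wt (horizontal axis, edgeR), of the 10 junction genes and of the genes of the 8 related lists that passed the expression filter, with 1 point per gene, blue lines at the list medians and filled red points for an adjusted p of 0.05 or less. Only Jup and Nectin2 are filled, and the 10 junction genes lie between -0.35 and 0.52 around a median of 0.05.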

How the data were processed

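RNA selected with oligo(dT) from 6 mucosal pools was sequenced on a HiSeq2000. The authors deposited, per pool, read counts on 38561 Ensembl genes, without normalization. The CPM deposited beside them is each count divided by the total of its pool and rescaled, and the deposited RPKM is that CPM per kilobase. Both were recomputed from the counts, differed by less than rounding, and were not used further. The submitters' processing notes name STAR 2.5.1a, Subread, featureCounts 1.4.6-p5 and GRCm38. Symbols came from GENCODE M21, and 36639 IDs matched. Cldn25 and Cldn26 had no row under these symbols.

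Genes past filterByExpr were scaled by TMM and tested by genotype with the quasi-likelihood test of edgeR 4.0.16 in R 4.3.3, with Benjamini-Hochberg adjustment over 16425 genes and the study's threshold of 0.05. The SE is the log2 fold change divided by the square root of F. DESeq2 1.42.0, limma-voom (limma 3.58.1), other scalings, filters, a robust fit, a replicate block and leaving out each pool were alternatives. A GC offset (lowess span 0.3) and the fit without the 2 pools highest in smooth muscle markers were added after the data were seen. Scripts were tested on simulated counts. Shares were tested by exact permutation.

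The genes and lists were chosen with earlier results of these data known. Named were Rbm47, the 10 genes, and in each related list the called genes and the 3 most abundant per kilobase, and genes of a marker list whose sum separated the genotypes or moved with one of the 10. A gene that this rule names is not reported here. Totals of 31560320 to 38951830 counts gave at least 339 counts for each of the 10 genes in each pool. P-values set the genotype difference against the spread between pools of 3 mice, and not against that between single mice. No pools were identical.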

Additional observations from a re-analysis of the deposited data

How the results depend on the processing

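Over 12 alternatives and 6 fits that each left out 1 pool, 171 of the 180 log2 fold changes of the 10 junction genes kept their direction and their side of the threshold, 3 passed it and 6 changed sign. The number of these genes called was 0 in edgeR as reported, and 1 (Cldn7) with DESeq2 and with edgeR using library size only or at least 50 counts in 3 pools. It was 0 in each of the 6 fits without 1 pool. Their median log2 fold change stayed between -0.10 and 0.12. The sign changes were in Cldn2 (-0.31 to 0.30 with 1 pool left out), Tjp1 (-0.024 to 0.10), Cdh1 (-0.01 to 0.15, where -0.005 was without pool 1 labelled Rbm47_IKO), and, without the 2 pools highest in smooth muscle markers, Cldn4 (0.15) and Tjp1 (-0.039). The difference in claudin share stayed within -9.82 to -9.31 percentage points for Cldn15, 7.38 to 12.0 for Cldn7 and 1.82 to 4.0 for Cldn3 with 1 pool left out, and changed sign for Cldn2 (-0.14 to 0.063) and Cldn23 (-0.056 to 0.232), in both without wt pool 1. For Cldn4 the difference in share ran from -5.45 percentage points without wt pool 1 to -1.22 without wt pool 3. Without division by gene length no share changed direction.

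The count over all genes, 443, was 1131 with DESeq2, 100 with the replicate block, 167 with the GC offset, and 0 to 431 with 1 pool left out, being 0 without pool 2 labelled Rbm47_IKO (where 1729 genes had an unadjusted p under 0.05), 32 without pool 1, 119 without pool 3 and 11 without wt pool 3. In the 8 related lists, the 2 calls became 7 with DESeq2, 4 with library size only, 0 with the replicate block, with the GC offset and without the 2 pools highest in smooth muscle markers, and 0 to 1 with 1 pool left out. Pools of the same number did not deviate together in every pair, with r across genes of 0.408 for pools 1, -0.00258 for pools 2 and -0.277 for pools 3. The numbers are therefore not taken to pair the pools. With the replicate block, none of the 10 genes was called. The causes of these shifts were not tested. Of the 10 genes, depth limits Cldn2 most, with 339 counts in its lowest pool.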

Other observations

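The ratio of Cldn7 to Cldn15 per kilobase, chosen after the values were seen and so given as a description, was 2.01, 2.19 and 2.23 in the libraries labelled Rbm47_IKO and 1.35, 1.07 and 1.15 in the wt libraries. The ratio of Cldn7 to Epcam, chosen in the same way, was 0.460, 0.507 and 0.516 against 0.351, 0.321 and 0.283. Neither ratio overlapped between genotypes, and both have Cldn7, which did not overlap alone, as their numerator. The ratio of Cldn3 to Cldn4 overlapped, at 1.99, 2.37 and 2.62 against 2.72, 1.42 and 1.01, and so did that of Ocln to Tjp1, at 1.52, 1.63 and 1.38 against 1.39, 2.11 and 2.04.

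Some genes outside the naming rule, picked after their values were seen, had pools that did not overlap without being called. In the adherens junction list Nectin3 was at -0.38 on the log2 scale (adjusted p = 0.160 in edgeR) and Ctnnd1, encoding p120-catenin, was at 0.37 (0.159). Among the regulators Klf5 was at 0.50 (edgeR adjusted p = 0.0739). DESeq2, which called 7.83% of all genes with an adjusted p, called Klf5. Of the 62 related genes tested, the pools of 19, or 30.6%, did not overlap, beside 23.3% of all genes tested.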
